A study of Mus musculus with 48 samples.

Results

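The 35 genes described here are interferon-stimulated genes, transcripts that cells switch on when interferon reaches its receptor. They were measured in the livers of 48 male mice. They were taken by name: a gene belonged if a non-control spot of the array carried its symbol, and the brightest tested probe stood for it. All 35 had a tested probe, of 22029 gene names tested in all. Wild-type (WT) mice, Pparα hep-/- mice (labelled LKO, a floxed Pparα gene removed by Cre under the albumin promoter, which is active in hepatocytes) and Pparα-/- mice (labelled KO, the germline null) received either control diet (CTRL) or a high fat diet (HFD) with 60% fat. Each of the 6 groups held 8 mice, 20 weeks old by the labels, which give 12 weeks of diet, while the study's text gives a shorter period. All mice were housed at thermoneutrality, and the livers were taken in the fed state. PPARα is a nuclear receptor that senses fatty acids. The WT mice were bought and both deletion lines were bred in house, so genotype and source cannot be told apart. The study's methods give C57BL/6J for the WT, Pparα-/- and albumin-Cre mice and no background for the floxed line.

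Type I and type III interferons act through a complex that includes Stat2 and Irf9 and binds the interferon-stimulated response element (ISRE), while the response to interferon gamma runs through the gamma-activated site (GAS). The genes switched on sense viral RNA, block its translation or degrade it, tag proteins, or, as guanylate-binding proteins and immunity-related GTPases, attack membranes around microbes. In the liver, hepatocytes, Kupffer cells and other immune cells all respond to interferon. In RNA from whole liver, fewer cells of a type and less RNA per cell cannot be told apart.

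The promoters show what the genes share in sequence, and 5 that carry complete ISRE letters are printed because their genes are described below. RefSeq (GRCm38.p6) held promoters for 25 of the 35 genes. The ISRE core, searched as GAAANNGAAA on both strands of the 250 bases before the start (adjacent matches may overlap), was present in 14 of the 25 genes, or 56%, against 2.98% of 32851 promoters and 3.46% of 27025 genes. The GAS-type letters TTCNNNGAA, which read the same on both strands, were present in 7 of the 25, or 28%, against 7.02% of promoters and 8.13% of genes. A match is a description of letters, not a site. The 150 bases before each start are given 5′ to 3′ on the gene's strand, with the ISRE core letters in capitals, for Ifit1 (chr19:34640739-34640888, plus strand), Isg15 (chr4:156200819-156200968, minus strand), Gbp2 (chr3:142620513-142620662, plus strand), Igtp (chr11:58199406-58199555, plus strand) and Irgm2 (chr11:58214827-58214976, plus strand). 
Ifit1: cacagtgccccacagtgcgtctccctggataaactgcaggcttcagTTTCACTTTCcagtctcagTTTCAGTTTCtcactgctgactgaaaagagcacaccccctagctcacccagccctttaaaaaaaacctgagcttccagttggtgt
Isg15: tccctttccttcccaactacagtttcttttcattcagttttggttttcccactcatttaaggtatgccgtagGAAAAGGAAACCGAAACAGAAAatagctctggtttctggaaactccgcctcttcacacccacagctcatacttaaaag
Gbp2: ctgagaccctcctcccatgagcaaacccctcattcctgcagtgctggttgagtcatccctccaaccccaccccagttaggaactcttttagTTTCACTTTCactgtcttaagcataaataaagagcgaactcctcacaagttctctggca
Igtp: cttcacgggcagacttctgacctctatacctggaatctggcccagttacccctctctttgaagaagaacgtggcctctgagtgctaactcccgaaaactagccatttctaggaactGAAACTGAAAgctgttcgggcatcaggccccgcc
Irgm2: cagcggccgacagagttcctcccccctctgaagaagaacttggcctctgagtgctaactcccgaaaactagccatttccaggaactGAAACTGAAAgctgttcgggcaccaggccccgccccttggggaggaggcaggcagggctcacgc

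Of 59305 non-control spots per array, 28234 to 38217 were well above background and 0 were saturated, and the arrays came from 6 slides and 2 wash batches. The 10 hepatocyte markers were well above background on all 48 arrays. Ppara itself was lower in Pparα-/- than in WT livers on CTRL at both its probes, by 0.65 and 1.11 on the log2 scale. In Pparα hep-/- livers on CTRL it fell by 0.42 at the first probe (adjusted p = 0.000887) and differed by -0.10 at the other (adjusted p = 0.454), and on HFD it fell by 0.85 and 0.68. Values below are quantile-normalized log2 signals, differences are weighted estimates from limma with wash batch as a term, each array weighted by how closely it followed its group, and a gene is called higher or lower at an adjusted p of at most 0.05 over all probes.

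In 4 mice the interferon-stimulated genes stood far above the rest of the group. The mean of the 35 genes, each taken as log2 signal minus its mean over the 48 mice, was 0.81 in WT CTRL replicate 6 and 0.87 in WT CTRL replicate 8, while the other WT CTRL mice lay between -0.69 and -0.14. It was 0.49 in WT HFD replicate 6 and 0.50 in Pparα-/- CTRL replicate 2, the highest mice of their groups. Of the 35 genes, 30 in WT CTRL replicate 6, 33 in WT CTRL replicate 8, 28 in WT HFD replicate 6 and 30 in Pparα-/- CTRL replicate 2 lay above every mouse of the group that is not among the 4, where 24.9%, 19.9%, 18.3% and 15.9% of all gene names did. In 22 genes all 4 mice did. The mice were picked on these genes' own level, which favoured these counts. The shares of all gene names are thus no baseline for them. The summed signal of 10 markers of recruited macrophages was also high in these mice, at 16.15 and 15.36 on the log2 scale in the WT CTRL pair against 13.75 to 14.22 in the other WT CTRL mice, at 16.24 in the Pparα-/- CTRL mouse against 14.08 to 15.34, and at 15.81 in the WT HFD mouse against 13.32 to 15.62. The sum of 10 Kupffer cell markers was 15.39 and 15.30 in the WT CTRL pair against 14.24 to 14.98 and 15.62 in the Pparα-/- CTRL mouse against 14.60 to 15.47, while that of the WT HFD mouse, 16.05, lay inside the range of its group, 13.89 to 16.27. Summed stellate cell markers were 16.12 and 15.44 in the WT CTRL pair against 14.14 to 15.00, and in WT HFD replicate 6 they were 16.51 against 14.01 to 15.24. In the Pparα-/- CTRL mouse they were 15.91 against 14.15 to 15.42. Summed neutrophil markers were 11.80 and 11.90 in the WT CTRL pair against 10.77 to 11.48. For these the WT HFD and Pparα-/- CTRL mice lay inside the ranges of their groups. WT CTRL replicate 6 also had a summed hepatocyte signal of 20.93 against 21.11 to 21.20, and a cholangiocyte marker sum of 14.37 against 11.22 to 12.44. The highest recruited macrophage sum of all 48 mice, 17.01, with a stellate cell sum of 16.50, was that of Pparα hep-/- CTRL replicate 1, which is not among the 4 and had the lowest array weight, 0.189. The part of these cells in the result was not tested. The fit gave the 4 mice array weights of 0.21, 0.56, 0.37 and 0.76. All 48 mice were kept, and values without the 4, which were picked on these genes' own level, are given as a description beside the results they touch.

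**Figure D1:**
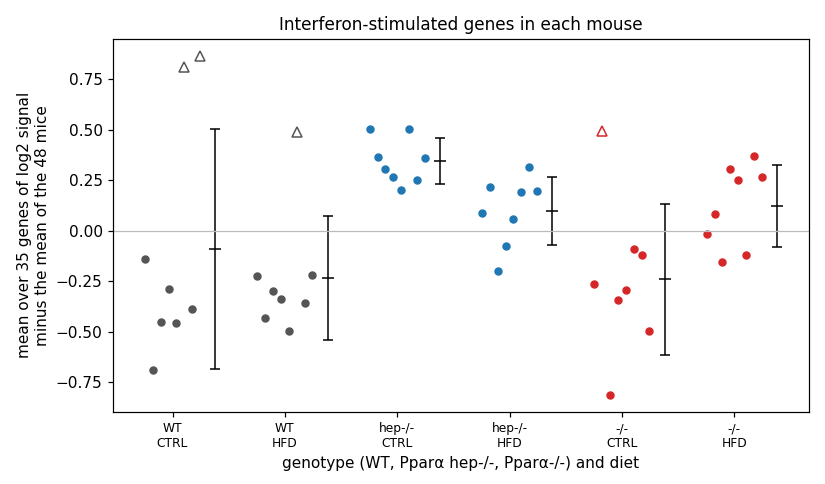
Each point is 1 mouse, placed by genotype and diet along the horizontal axis and by the mean over the 35 genes of its log2 signal minus the mean of the 48 mice on the vertical axis; black dashes and bars are the mean ± SD of 8 mice, and open triangles mark the 4 mice that stood apart. The Pparα hep-/- CTRL mice all lie between 0.20 and 0.50, while the WT CTRL mice run from -0.69 to 0.87.

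The first question was what the loss of Pparα in hepatocytes alone did on CTRL. Against WT, 21 of the 35 genes were higher in Pparα hep-/- livers and 0 lower, where 12.3% of all gene names were higher and 12.9% lower, and the median difference of the 35 genes was 0.55 against -0.00 over all gene names. Higher genes were found in every functional group: RNA and DNA sensors, the Ifit family and the Isg15 system, oligoadenylate synthetases, antiviral effectors and interferon-induced GTPases. Of the transcription factors only Irf7 passed. The 14 genes that did not pass, from Irf1 and Stat2 to Iigp1, had differences of -0.12 to 0.56.

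Ifit3, whose protein works with Ifit1 and Ifit2 to hold foreign RNA away from the ribosome, showed one of the largest rises. Its log2 signal ran from 9.52 through a median of 10.03 to 11.54 in WT CTRL mice and from 11.06 through 11.43 to 11.64 in Pparα hep-/- CTRL mice. The groups overlapped through the high WT mice. The difference was 1.32 (SE 0.20, 2.49-fold, adjusted p = 3.64e-06), with 8 of 8 Pparα hep-/- mice above the WT mean, and it was 0.99 and 1.18 within the 2 wash batches. Ifit1 was 2.26-fold and Ifit2 1.91-fold higher, with adjusted p of 0.000509 and 0.000144.

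Rsad2 encodes viperin, which makes a nucleotide that stops viral RNA synthesis. It ran from 7.75 through 8.49 to 10.54 in WT CTRL mice and from 9.46 through 9.85 to 10.35 in Pparα hep-/- CTRL mice, a difference of 1.34 (SE 0.24, 2.53-fold, adjusted p = 5e-05). Every Pparα hep-/- mouse lay above the WT median and mean. The sensor Ifih1, which recognises long double-stranded RNA, ran from 9.96 through 10.59 to 11.16 in WT and from 10.93 through 11.07 to 11.23 in Pparα hep-/- mice. It was 1.52-fold higher (log2 difference 0.61, SE 0.09, adjusted p = 3.71e-06), and this call held without array weights.

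Isg15 is a ubiquitin-like protein that is attached to other proteins, and Usp18 removes it and dampens the type I receptor. Isg15 ran from 11.32 through 11.91 to 13.83 in WT CTRL mice and from 12.71 through 12.84 to 13.19 in Pparα hep-/- CTRL mice, a 1.77-fold difference (log2 0.83, SE 0.19, adjusted p = 0.00109). Usp18 was 1.93-fold higher (log2 0.95, SE 0.26, adjusted p = 0.00526). Both genes overlapped between the groups through the high WT mice, whose highest values exceeded every Pparα hep-/- value.

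Oas1a makes the oligoadenylates that activate RNase L, and it ran from 10.74 through 11.52 to 13.79 in WT CTRL mice and from 12.23 through 12.42 to 13.55 in Pparα hep-/- CTRL mice. The difference was 0.87 (SE 0.26, 1.83-fold, adjusted p = 0.0113), and the call was lost without WT CTRL replicate 2 or 5 (adjusted p up to 0.0727). Among the interferon-induced GTPases, Gbp3 was 2.18-fold, Gbp6 2.32-fold, Gbp2 1.80-fold and Gbp7 1.49-fold higher, with adjusted p between 7.21e-05 and 0.0169. Gbp3 ran from 8.19 through 8.87 to 10.26 in WT and from 9.89 through 10.09 to 10.25 in Pparα hep-/- mice.

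The other genes called higher were Irf7 (1.37-fold), the sensors Ddx58 (1.24-fold), Dhx58 (1.45-fold) and Zbp1 (1.47-fold), Oasl2 (1.58-fold), the dynamin-like GTPase Mx1 (1.79-fold), Xaf1 (1.65-fold), Ifi44 (1.98-fold) and Irgm1 (1.36-fold), with adjusted p of at most 0.0315. Leaving out 1 array lost the Irf7 call in 5 fits and that of Zbp1 in 3 (adjusted p up to 0.109 and 0.158). The Oasl2 call was lost in 3 and that of Irgm1 in 2 (up to 0.0711 and 0.0752). At least 1 dimmer probe of Irf7, Rsad2 and Irgm1 was also called higher. No dimmer probe of Ifih1, Ddx58, Zbp1, Mx1, Xaf1 or Ifi44 was called. In all 21 genes the difference at the brightest probe had the same direction within both wash batches. Without array weights 8 of these genes stayed called, namely Ifih1, Ifit2, Ifit3, Rsad2, Xaf1, Gbp3, Gbp6 and Gbp7, where 16.6% of all probes were called in either direction, against 24.7% with weights. With 1 weight per group 7 were called, where 12.6% of probes were. Without the 4 mice that stood apart 24 genes were called, and 27 when these mice were left out and no weights were used, where 27.9% and 25.3% of probes were.

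The separation of the groups also turned on those mice. With all mice, 0 of the 35 genes had every Pparα hep-/- CTRL mouse above every WT CTRL mouse, where 0.613% of gene names did. Without the 4 mice, 19 genes did, among them Irf7, Ifih1, Ifit1, Ifit2, Ifit3, Isg15, Usp18, Oas1a, Mx1, Rsad2 and Gbp3. These mice were picked on the genes' own level, so leaving them out favours a separation. The 3.23% of gene names that separated then is no baseline for these genes.

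**Figure D2:**
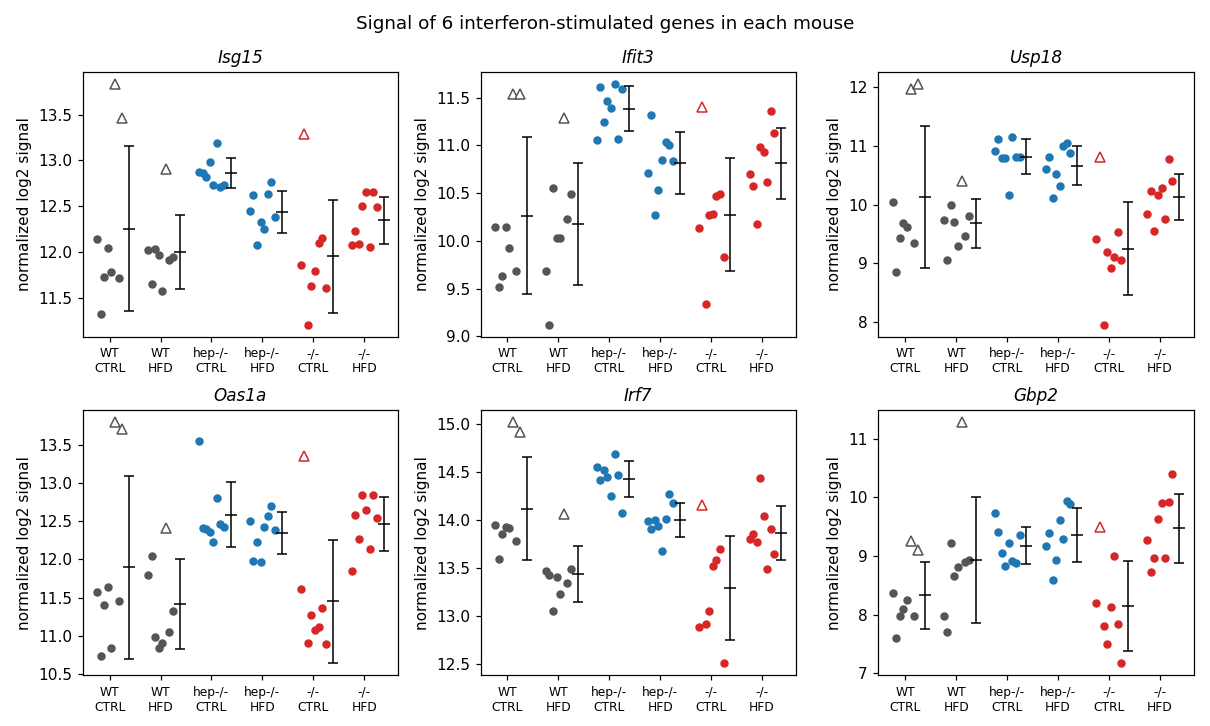
Normalized log2 signal (vertical axes) of Isg15, Ifit3, Usp18, Oas1a, Irf7 and Gbp2 in each of the 48 mice by genotype and diet; black dashes and bars are the mean ± SD of 8 mice and open triangles the 4 mice that stood apart. For Ifit3 the Pparα hep-/- CTRL mice lie between 11.06 and 11.64, and of the WT CTRL mice only the marked ones reach that range.

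Whole-body loss of Pparα did not give the same picture on CTRL. Against WT, 4 of the 35 genes were higher and 7 lower in Pparα-/- livers, where 16.9% and 18.4% of all gene names were, and the median difference was 0.11. The split turned with the mice and the weights, to 7 higher and 5 lower without the 4 mice that stood apart and to 2 higher and 9 lower without array weights. Against Pparα hep-/- livers, 22 genes were lower and 2 higher, where 13.4% and 13.2% of gene names were, with a median of -0.43. This comparison shares the Pparα hep-/- CTRL mice with that of Pparα hep-/- against WT livers.

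Irf7, the factor that amplifies type I interferon production, was the clearest of the transcription factors. It ran from 13.59 through 13.92 to 15.02 in WT, from 14.08 through 14.46 to 14.68 in Pparα hep-/- and from 12.51 through 13.29 to 14.16 in Pparα-/- CTRL mice. It was lower in Pparα-/- than in WT (log2 -0.61, SE 0.17, 1.53-fold, adjusted p = 0.00312) and than in Pparα hep-/- mice (log2 -1.07, SE 0.15, 2.10-fold, adjusted p = 2.08e-07). Stat2 and Irf9 moved less: Stat2 fell by 0.20 against WT and by 0.22 against Pparα hep-/-, and Irf9 fell by 0.28 against Pparα hep-/-.

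Usp18 ran from 7.96 through 9.15 to 10.81 in Pparα-/- CTRL mice, against 10.16 through 10.81 to 11.15 in Pparα hep-/- CTRL mice. Its difference was -1.47 (SE 0.24, 2.77-fold lower, adjusted p = 5.93e-06), with 8 of 8 Pparα-/- mice below the Pparα hep-/- mean. Ifi44, a cytosolic protein named for its induction by interferon, was 3.04-fold lower (log2 -1.61, SE 0.22, adjusted p = 1.39e-07). It ran from 7.16 through 7.68 to 9.41 in Pparα-/- and from 9.09 through 9.27 to 9.86 in Pparα hep-/- mice, and replicate 2 was the Pparα-/- mouse inside the higher range. Oasl1, which holds back translation of Irf7, was 2.33-fold lower than in Pparα hep-/- and 1.58-fold lower than in WT (adjusted p = 6.6e-05 and 0.0439). The second call was lost without the 4 mice (adjusted p = 0.16), as was that of Stat2 against WT (adjusted p = 0.12).

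The remaining genes lower in Pparα-/- than in Pparα hep-/- CTRL livers covered the sensors Ddx58 and Dhx58, all 3 Ifit genes, Isg15, Oas1a, Oasl2, Rsad2, Bst2, Xaf1, Gbp2, Gbp3, Gbp6, Irgm2 and Iigp1. A dimmer Xaf1 probe read the opposite, as described below. Ifit3 was 2.06-fold lower (adjusted p = 2.93e-05) and Oas1a also 2.06-fold lower (adjusted p = 0.00111). The smallest call was Ddx58, lower by 0.21 with an adjusted p of 0.0475, and it was lost without array weights and in 26 of 48 fits that left out 1 array (adjusted p up to 0.148). Without array weights the other 21 of the 22 stayed called, where 19.2% of all probes were called in either direction, against 25.2% with weights, and without the 4 mice all 22 did.

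Mx2 and Xaf1 differed in Pparα-/- livers from both other genotypes. Mx2, a dynamin-like antiviral GTPase, ran from 10.43 through 10.995 to 11.42 in Pparα-/- CTRL mice, overlapping with 8.90 through 9.38 to 10.59 in WT and not with 9.14 through 9.45 to 9.88 in Pparα hep-/- mice. It was 3.05-fold higher than in WT (log2 1.61, SE 0.18, adjusted p = 4.47e-10) and 2.85-fold higher than in Pparα hep-/- mice (log2 1.51, SE 0.16, adjusted p = 1.66e-10). On HFD it ran from 9.98 through 10.22 to 10.67 in Pparα-/- mice, from 8.55 through 8.86 to 9.85 in WT and from 8.79 through 9.21 to 9.41 in Pparα hep-/- mice. No Pparα-/- HFD mouse overlapped with a mouse of either other genotype, and the folds were 2.53 and 2.16 (adjusted p = 7.06e-10 and 2.19e-08). Pparα hep-/- and WT mice were not called different for Mx2 on either diet. Its neighbour in the family, Mx1, was called in neither CTRL comparison of Pparα-/- mice.

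Xaf1, a protein that promotes cell death, went the other way at its brightest probe. It ran from 7.34 through 7.90 to 8.52 in Pparα-/- CTRL mice, from 8.53 through 8.93 to 10.49 in WT and from 9.38 through 9.71 to 10.01 in Pparα hep-/- mice, with no overlap of Pparα-/- mice with either group. The difference against WT was -0.98 (SE 0.15, adjusted p = 1.55e-06) on CTRL and -0.91 (SE 0.13, adjusted p = 2.16e-07) on HFD. A second, dimmer Xaf1 probe read the opposite: it ran from 9.54 to 11.37 in Pparα-/- CTRL mice and from 10.77 to 11.28 in Pparα-/- HFD mice, against 5.20 to 5.80 and 4.997 to 5.71 in the WT groups. That probe was well above background on all 8 arrays of each Pparα-/- group, but on 2 WT CTRL and 1 WT HFD arrays. Its level in the other groups is thus near background, no size is given for it, and by the mean of both probes the direction of Xaf1 turned. The brightest probe lies at chr11:72122169-72122228 and the dimmer one at chr11:72127175-72127234 in mm9, the build of the array's annotation, and which transcript each reads was not tested.

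**Figure D3:**
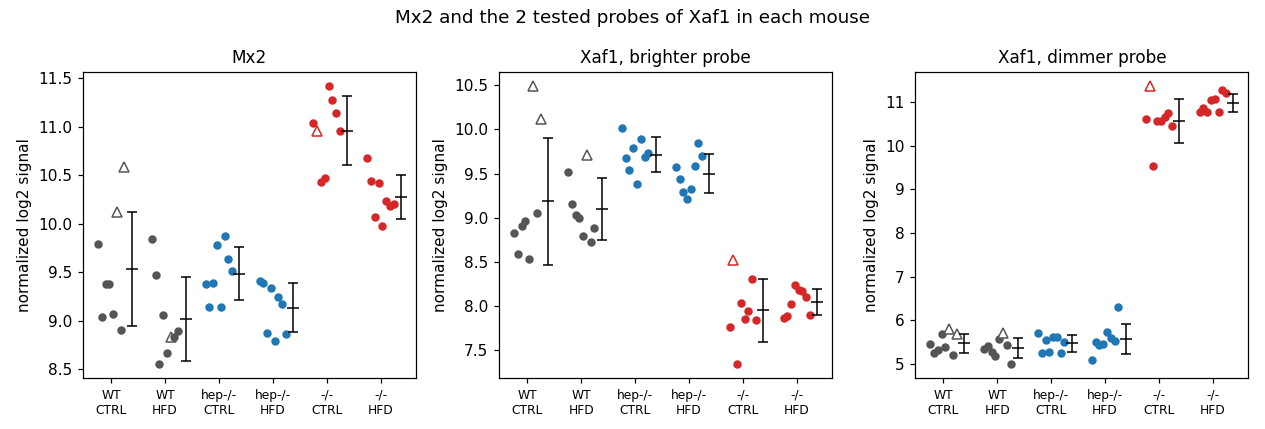
Normalized log2 signal (vertical axes) of Mx2 and of the 2 tested Xaf1 probes in each of the 48 mice by genotype and diet; black dashes and bars are the mean ± SD of 8 mice and open triangles the 4 mice that stood apart. In Pparα-/- mice Mx2 lies at 9.98 or above and the brightest Xaf1 probe at 8.52 or below, while the dimmer Xaf1 probe lies at 9.54 or above.

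Igtp and Irgm2, immunity-related GTPases of neighbouring genes, parted in Pparα-/- livers against WT on CTRL. Igtp was 1.62-fold higher than in WT on CTRL (log2 0.70, SE 0.18, adjusted p = 0.00251), with a range of 11.67 through 12.98 to 13.45 against 11.56 through 12.25 to 13.25, but this call was lost without array weights and Igtp was not called against Pparα hep-/- livers (adjusted p = 0.229). Irgm2 was 1.45-fold lower (log2 -0.53, SE 0.15, adjusted p = 0.00347), with a range of 10.90 through 11.61 to 11.86 against 11.70 through 12.16 to 13.02. The printed promoters of this pair share an identical run of 38 bases, which begins at base -80 from the start of Igtp and at base -110 from that of Irgm2 and ends ahead of the ISRE core letters. Bst2, or tetherin, which ties budding virus to the cell surface, was 1.25-fold lower than in WT (adjusted p = 0.0121), while Ifih1 was 1.41-fold and Gbp7 1.25-fold higher (adjusted p = 6.42e-05 and 0.0329). The Gbp7 call was lost without array weights and in 8 of 48 fits that left out 1 array (adjusted p up to 0.135). A second, dimmer Ifih1 probe read lower in Pparα-/- than in WT, with 1 of 8 Pparα-/- CTRL arrays well above background, so no size is given for it.

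On HFD both deletions were above WT. In Pparα hep-/- livers 18 of the 35 genes were higher and 0 lower, where 14.6% and 14% of all gene names were, with a median of 0.37. In Pparα-/- livers 22 were higher and 2 lower, where 24.1% and 23.7% of gene names were, with a median of 0.43. The 2 comparisons share the WT HFD mice. Irf7, Ifih1, Ddx58, Ifit2, Ifit3, Isg15, Oas1a, Oas2, Oas3, Oasl2, Mx1, Ifi44, Gbp3 and Irgm1 were among those called higher in each. Oas3 was near background in WT, and without it 17 and 21 genes were higher. Between the deletions on HFD, 6 genes were higher and 4 lower in Pparα-/- livers, where 16.9% and 15% of gene names were, and the median was 0.07.

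Of the oligoadenylate synthetase family, Oas1a, Oas2 and Oasl2 were higher than WT in both deletions on HFD. Oas1a ran from 10.85 through 11.19 to 12.41 in WT, from 11.96 through 12.40 to 12.70 in Pparα hep-/- and from 11.85 through 12.56 to 12.85 in Pparα-/- HFD mice. It was 2.33-fold higher than WT in Pparα hep-/- mice (log2 1.22, SE 0.24, adjusted p = 0.000142) and 2.46-fold higher in Pparα-/- mice (log2 1.30, SE 0.24, adjusted p = 1.31e-05). Replicates 2 and 6 were the WT HFD mice that reached into the range of either deletion. Oas2 was 1.83-fold and 2.08-fold higher, and Oasl2 1.92-fold and 2.02-fold higher, in the same order. Oas3 was also called higher in both, but its probe was well above background on 1 WT HFD array and on 7 arrays of each deletion, so it was tested because of the groups in which it is high and its fold is uncertain. Oas1b, known for flavivirus resistance, was called in neither. Oasl1 was lower in Pparα-/- than in WT mice on HFD, with a range of 10.72 through 11.09 to 11.84 against 11.36 through 11.76 to 12.29 (log2 -0.61, adjusted p = 0.0232), and it was not called in Pparα hep-/- against WT mice (log2 0.19, adjusted p = 0.574). The Oasl1 call was lost without array weights and in 2 of 48 fits that left out 1 array (adjusted p up to 0.0911). Xaf1, at its brightest probe, was the other gene lower in Pparα-/- than in WT on HFD, while its dimmer probe was called higher.

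Ifit3 ran from 9.12 through 10.13 to 11.28 in WT, from 10.27 through 10.84 to 11.32 in Pparα hep-/- and from 10.18 through 10.82 to 11.36 in Pparα-/- HFD mice. Its folds against WT were 1.56 and 1.54 (adjusted p = 0.00709 and 0.00445), and the groups overlapped. Isg15 was 1.46-fold and 1.37-fold higher (adjusted p = 0.015 and 0.0283), and the second call was lost in 4 of 48 fits that left out 1 array (WT HFD replicate 5 or 8 or Pparα-/- HFD replicate 5 or 7, adjusted p up to 0.0862). Ifi44 was 1.87-fold and 1.84-fold higher (adjusted p = 0.00136 and 0.000634), and Gbp3 1.61-fold and 1.89-fold higher (adjusted p = 0.0052 and 7.78e-05). The differences were larger in the second wash batch for Pparα-/- against WT in these genes, for example 0.43 and 0.84 for Ifit3.

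Usp18, Rsad2, Bst2 and Xaf1 were called higher than WT on HFD in Pparα hep-/- but not in Pparα-/- livers. Of these, Bst2 and Xaf1 were also called lower in Pparα-/- than in Pparα hep-/- livers (adjusted p = 0.00563 and 1.66e-13). The Bst2 call was lost without array weights. The Xaf1 call is that of its brightest probe, while the dimmer one was called higher, so the direction of the gene is open. Oasl1 and Iigp1 were called lower too, whereas for Usp18 and Rsad2 the deletions were not called different. Usp18 ran from 9.07 through 9.72 to 10.40 in WT and from 10.12 through 10.71 to 11.05 in Pparα hep-/- HFD mice, a 2.11-fold difference (log2 1.08, SE 0.23, adjusted p = 0.00057).

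In the other direction, Irf1, Irf9, Mx2, Ifi35, Parp14, Gbp2, Gbp7 and Igtp were called higher than WT on HFD in Pparα-/- but not in Pparα hep-/- livers. Irf1, a transcription factor prominent in the interferon gamma response, Mx2, Parp14, an ADP-ribosyltransferase, Gbp7 and Igtp were also called higher than in Pparα hep-/- livers, as was Oas3. Without array weights these calls against Pparα hep-/- livers held for Irf1, Mx2 and Igtp and not for Parp14, Gbp7 and Oas3. That of Gbp7 was also lost in 10 of 48 fits that left out 1 array (adjusted p up to 0.257). Against WT on HFD the calls of Irf1, Irf9, Ifi35 and Gbp2 were lost without array weights, and those of Mx2, Parp14, Gbp7 and Igtp held. Leaving out 1 array lost the Irf1 call against WT in 6 fits, Irf9 in 4, Gbp2 in 3 and Ifi35 in 1 (adjusted p up to 0.138). Igtp ran from 12.65 through 12.90 to 13.55 in Pparα-/- HFD mice against 11.89 through 12.24 to 12.62 in Pparα hep-/- mice, with no overlap (log2 0.80, SE 0.15, 1.74-fold, adjusted p = 3.43e-05). For Irf9, Ifi35 and Gbp2 the deletions were not called different. Ifi35 and Gbp2 had opposite signs in the 2 wash batches for Pparα-/- against WT, -0.03 and 0.37 for Ifi35 and -0.06 and 1.14 for Gbp2, while the other 22 calls kept their direction in both.

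Array weights bore on the HFD counts. Without them 4 genes were called higher in Pparα hep-/- than in WT (Irf7, Ifit2, Usp18 and Bst2), where 9.74% of all probes were called in either direction. In Pparα-/- against WT 15 genes were called without weights, where 31.7% of probes were. Without the 4 mice all 18 and all 24 calls held.

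**Figure D4:**
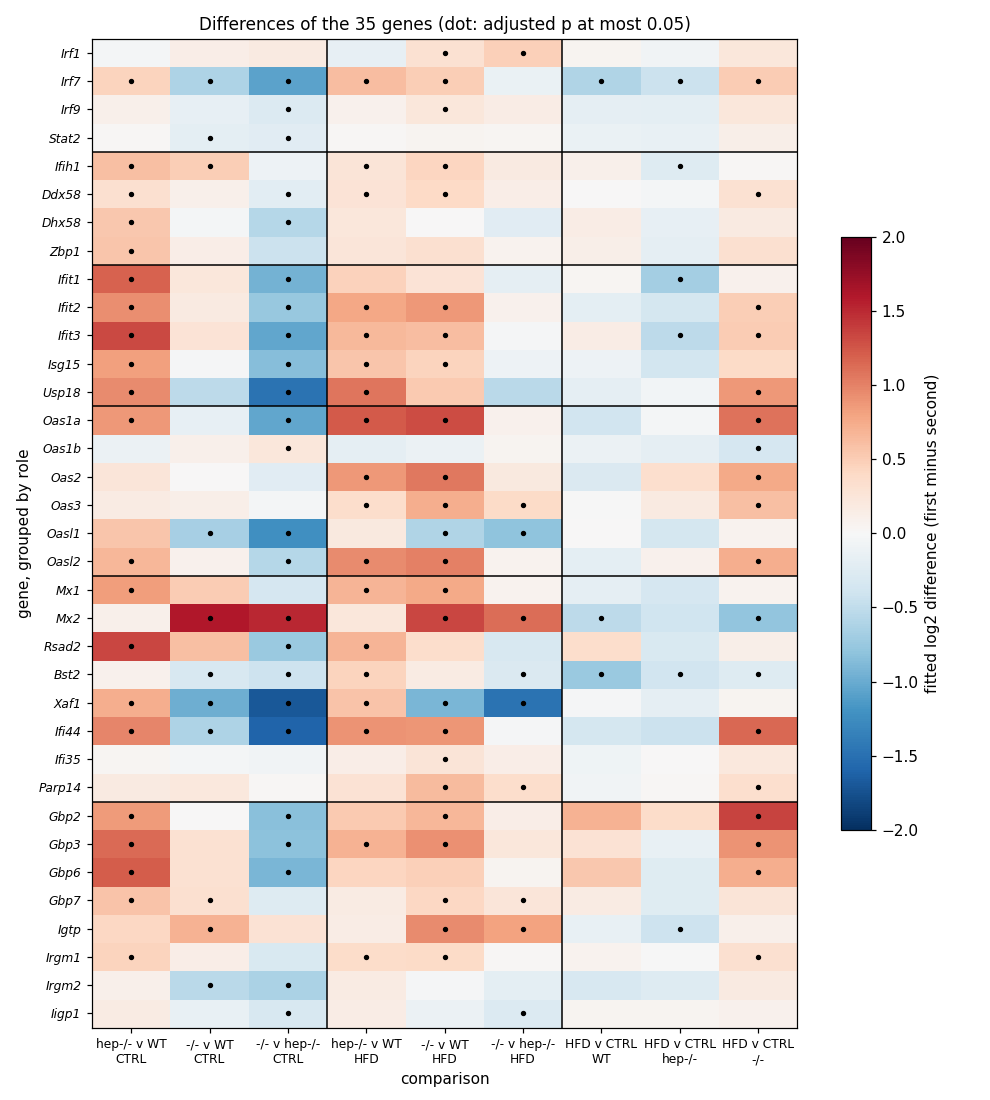
Log2 differences of the 35 genes (vertical axis, by functional group) in each comparison (horizontal axis) as colour, with a dot where the adjusted p was at most 0.05. Against WT the Pparα hep-/- column on CTRL holds 21 dots, all for higher signal, and the column of Pparα-/- against Pparα hep-/- on CTRL holds 22 dots for lower signal.

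The second question was how HFD changed these genes within each genotype. In WT mice HFD left 32 of the 35 genes uncalled, with 0 higher and 3 lower, where 9.32% and 10.1% of all gene names were, and in Pparα hep-/- mice 0 were higher and 6 lower, where 10.7% and 11.8% were. In Pparα-/- mice 15 were higher and 3 lower, where 13.8% and 12.6% were. Without Oas3, which was near background on CTRL, 14 were higher. The medians were -0.08, -0.18 and 0.26. Without the 4 mice 1 gene (Gbp2) was higher and 2 (Irf7 and Bst2) were lower with HFD in WT mice.

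The genes that fell in WT mice were Irf7, Mx2 and Bst2. Bst2 ran from 14.22 through 14.34 to 15.49 on CTRL and from 13.46 through 13.69 to 14.10 on HFD, with no overlap (log2 -0.74, SE 0.10, adjusted p = 1.8e-06). Bst2 also fell in Pparα hep-/- mice, by 0.38 (SE 0.09, adjusted p = 0.0016), and in Pparα-/- mice, by 0.25 (SE 0.09, adjusted p = 0.0337), and both these calls were lost without array weights. The Mx2 fall in WT, -0.52, was lost without the 4 mice (adjusted p = 0.12) and without array weights.

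In Pparα hep-/- mice the falls with HFD were small: Irf7 by 0.43, Ifih1 by 0.26, Ifit1 by 0.68, Ifit3 by 0.52, Bst2 by 0.38 and Igtp by 0.41, with adjusted p from 0.0016 to 0.0488. Ifit1 ran from 8.79 through 9.40 to 9.87 on CTRL and from 8.30 through 8.78 to 9.22 on HFD, so the groups overlapped. None of the 6 calls held without array weights, where the share of all probes called went from 20.2% to 3.81%, and the Igtp call was also lost in 25 of 48 fits that left out 1 array (adjusted p up to 0.140).

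In Pparα-/- mice Gbp2, a guanylate-binding protein strongly driven by interferon gamma, rose most. It ran from 7.17 through 7.99 to 9.50 on CTRL and from 8.73 through 9.45 to 10.40 on HFD, a 2.54-fold rise (log2 1.34, SE 0.25, adjusted p = 0.000103). Ifi44 rose 2.22-fold (log2 1.15, SE 0.21, adjusted p = 0.000133), from 7.16 through 7.68 to 9.41 on CTRL to 8.51 through 8.75 to 9.33 on HFD. All 8 HFD mice lay above the CTRL mean for both genes, and the CTRL mouse that reached into the HFD range for Ifi44 was replicate 2.

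Oas1a rose 2.12-fold, Gbp3 1.87-fold, Usp18 1.83-fold, Oas2 1.70-fold, Oasl2 1.66-fold, Gbp6 1.65-fold, Irf7 1.43-fold, Ifit3 1.42-fold, Ifit2 1.41-fold, Parp14 1.27-fold, Irgm1 1.25-fold and Ddx58 1.23-fold. Adjusted p for these ran up to 0.0496, and of 48 fits that left out 1 array the Irgm1 call was lost in 32 (adjusted p up to 0.159), that of Gbp6 in 10 (up to 0.106) and that of Ifit3 in 8 (up to 0.146). Oas3 was called higher too, with 2 CTRL and 7 HFD arrays well above background. Mx2 fell by 0.79 (SE 0.15, adjusted p = 0.000228) and Oas1b by 0.34 (SE 0.08, adjusted p = 0.00122). Without array weights 7 of the rises stayed called, those of Irf7, Oas1a, Oas2, Oas3, Ifi44, Gbp2 and Gbp3, where 12.1% of all probes were called in either direction against 24.8% with weights.

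The responses to HFD were compared directly as a difference of differences. Between Pparα-/- and WT mice 9 of the 35 genes responded differently, all more upward in Pparα-/- mice, where 7.75% of all gene names did so and 7.77% the reverse. The genes were Irf7, Irf9, Usp18, Oas1a, Oas2, Oas3, Oasl2, Bst2 and Ifi44. Of these, Oas3 was near background in some of the groups and was tested because of those in which it is high. The gap was 1.11 for Irf7 (SE 0.22, adjusted p = 0.000609), 1.4997 for Ifi44 (SE 0.32, adjusted p = 0.00139) and 1.47 for Oas1a (SE 0.36, adjusted p = 0.00482). For Irf7 it joins a fall in WT with a rise in Pparα-/- mice. The gap for Bst2, 0.48, stands between a larger and a smaller fall.

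Between Pparα-/- and Pparα hep-/- mice 8 genes responded more upward in Pparα-/- mice and 0 the reverse, where 2.55% and 1.38% of gene names did: Irf7, Irf9, Ifit2, Ifit3, Oas1a, Ifi44, Gbp3 and Gbp7. None of these 8 calls held without array weights, and 2 genes were called with 1 weight per group, where the share of all probes called went from 3.42% to 0.33% and 0.627%. Of 48 fits that left out 1 array the Oas1a call against Pparα hep-/- mice was lost in 33 (adjusted p up to 0.0959), and the Irf9 call in 12 against Pparα hep-/- (up to 0.0970) and in 6 against WT mice (up to 0.0817). Between Pparα hep-/- and WT mice limma called 0 of the 35, where 4.86% and 6.3% of gene names were, 6 genes had an unadjusted p of at most 0.05, and without the 4 mice 5 genes were called, all more downward in Pparα hep-/- mice. Without array weights only Irf7 and Ifi44 kept a larger response in Pparα-/- than in WT mice, where 5.22% of probes were called against 14.3% with weights.

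Other genes of the interferon pathway were taken from a list of 139, of which 118 were tested. In Pparα hep-/- against WT livers 43 (36.4%) were higher and 3 (2.54%) lower on CTRL, where 12.3% and 12.9% of all gene names were, and 39 (33.1%) and 3 (2.54%) on HFD, where 14.6% and 14% were. In Pparα-/- against Pparα hep-/- livers on CTRL 12 (10.2%) were higher and 33 (28%) lower, where 13.2% and 13.4% were. On CTRL, Pparα-/- against WT livers had 21 (17.8%) higher and 14 (11.9%) lower, near or below the 16.9% and 18.4% of all gene names, and on HFD 61 (51.7%) and 12 (10.2%), where 24.1% and 23.7% were. On HFD, Pparα-/- against Pparα hep-/- livers had 26 (22%) higher and 9 (7.63%) lower, where 16.9% and 15% were. HFD raised 53 (44.9%) and lowered 5 (4.24%) in Pparα-/- mice, where 13.8% and 12.6% of gene names were called. With HFD 5 (4.24%) were higher and 4 (3.39%) lower in WT mice, below the 9.32% and 10.1% of all gene names, and 9 (7.63%) and 5 (4.24%) in Pparα hep-/- mice, below the 10.7% and 11.8%.

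The ligands gave little signal. Ifng, the interferon gamma gene, was well above background on 1 to 5 arrays of each group, and the interferon alpha gene Ifna1 had group medians of 6.02 to 6.16 on the log2 scale. Of 12 ligands and related cytokines tested, 1 was called higher with HFD in Pparα-/- mice, Il15 (log2 0.52, adjusted p = 0.00139), and 1 lower, Il18. Of all gene names 13.8% were higher and 12.6% lower. On CTRL Il15, a cytokine that maintains natural killer cells, was likewise above WT in Pparα hep-/- livers (log2 0.40, adjusted p = 0.0198). Ifng was called higher in Pparα-/- than in Pparα hep-/- livers on either diet, but with 3 and 2 Pparα hep-/- and 4 and 5 Pparα-/- arrays well above background on CTRL and HFD no size is given for it.

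Of the interferon receptor genes, which bring the signal into the cell, Ifnar1 was lower in Pparα hep-/- than in WT livers on CTRL (log2 -0.21, adjusted p = 0.00533) and Ifnar2 lower in Pparα-/- than in WT (log2 -0.23, adjusted p = 0.0231), and the other receptors were not called against WT on CTRL. In Pparα-/- mice 5 of 6 rose with HFD: Il10rb by 0.70, Ifngr2 by 0.49, Ifnlr1 by 0.46, Ifngr1 by 0.38 and Ifnar2 by 0.20 on the log2 scale, with Ifnlr1 well above background on 3 CTRL and 7 HFD arrays. Of all gene names 13.8% rose. In Pparα hep-/- mice Ifngr2, Ifngr1 and Ifnlr1 rose and Ifnar2 fell by 0.28, and in WT mice 0 of 6 were called. Of all gene names 10.7% rose and 11.8% fell in Pparα hep-/- mice, and 9.32% and 10.1% in WT mice. Socs3, an inhibitor of cytokine signalling, was lower in Pparα hep-/- than in WT on CTRL by -1.89 (SE 0.33, adjusted p = 3.08e-05).

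Among 67 further targets, Ifi27l2b, a mitochondrial interferon-inducible protein, led most of the rises. It was higher in Pparα hep-/- than in WT by 1.78 on CTRL and 2.51 on HFD, higher in Pparα-/- than in WT by 1.51 and 2.89, and HFD raised it by 1.22 in the hepatocyte deletion and by 1.88 in the germline deletion. Ifit3b and the immunoproteasome subunit Psmb9 followed in Pparα hep-/- against WT on CTRL, with 1.38 and 1.21, where Socs3, Irf2 (-0.50) and Ifnar1 were the largest falls. On HFD Oas1f and Ly6e followed, with 1.15 and 1.13, and Ifna9, Il18 and Ifnar2 fell by 0.43, 0.38 and 0.36.

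Trim34a was lower in Pparα-/- than in WT, with differences of -2.09 on CTRL and -2.21 on HFD, as was Trim21, an antibody receptor in the cytosol, with -0.82 and -0.88. Slfn8 was called lower in Pparα-/- than in WT and in Pparα hep-/- livers whatever the diet, but it was well above background on 1 of 8 arrays in each Pparα-/- group and on all arrays of the other groups, so no size is given for it. Irf5, an interferon regulatory factor of macrophages, and Ifi30, a lysosomal reductase, were higher in Pparα-/- than in WT on CTRL by 1.03 and 0.79, while on HFD Ifi27l2a and Cxcl10, a chemokine for T cells, were higher by 1.38 and 1.30. Against Pparα hep-/- livers on CTRL the largest rises were those of Socs3 (1.18) and Irf5 (0.81), and beside Slfn8 the largest falls those of Trim34a (-2.57) and Trim30d (-1.38). On HFD they were those of Gbp8 (0.80), Irf5 (0.78) and Ifi30 (0.66), and, beside Slfn8, of Trim34a (-2.40) and Trim21 (-0.85).

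With HFD, Ifi27l2a and Cxcl10 rose by 1.12 and 1.09 in Pparα-/- mice and Trim25, Ms4a4c and Nlrx1 fell by 1.02, 0.62 and 0.33. In WT mice Tor3a, Rnf125 and Psmb9 rose by 0.83, 0.82 and 0.69, and Socs3, Ly6e and Ifitm3 fell by 1.62, 0.61 and 0.27. In Pparα hep-/- mice Tmem173, which encodes the DNA-signalling adaptor STING, and Slfn2 rose by 0.50 and 0.46, and Trim25, Ms4a4c and Il18 fell by 0.55, 0.38 and 0.32.

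Markers of other liver cells moved in the same comparisons. Of 10 Kupffer cell markers, 5 were higher in Pparα hep-/- than in WT on CTRL and 7 on HFD. Of all gene names 12.3% and 14.6% were. In Pparα-/- against WT livers on HFD 9 markers were higher, where 24.1% of gene names were. With HFD 8 rose in Pparα-/- mice, 3 in Pparα hep-/- mice and 0 in WT mice, where 13.8%, 10.7% and 9.32% of gene names did. On CTRL, 5 were higher in Pparα-/- than in WT, where 16.9% of gene names were. Between the deletions on CTRL 0 were called, where 13.2% of gene names were higher and 13.4% lower. The log2 sum of these markers ran from 14.24 to 15.39 in WT CTRL, from 15.06 to 15.72 in Pparα hep-/- CTRL, from 14.60 to 15.62 in Pparα-/- CTRL and from 15.37 to 16.37 in Pparα-/- HFD mice. Markers of recruited macrophages rose with HFD in 7 of 10 in Pparα hep-/- mice, where the interferon-stimulated genes fell or were not called, and in 8 of 10 in Pparα-/- mice. Stellate cell markers rose with HFD in 5 of 8 and 7 of 8, in the same order. Against WT on HFD, 7 of 8 stellate cell markers were higher in Pparα hep-/- and 8 of 8 in Pparα-/- livers. Of all gene names 14.6% and 24.1% were. Of 10 neutrophil markers, 7 were higher and 1 lower in Pparα-/- than in WT on HFD, where 24.1% and 23.7% of gene names were. In Pparα-/- mice 3 rose with HFD, where 13.8% of gene names did. The median log2 sum of the neutrophil markers was 12.25 in Pparα-/- HFD, 11.33 in Pparα-/- CTRL and 10.98 in WT HFD mice. Of 11 T or natural killer cell markers, 6 were higher in Pparα-/- than in WT on HFD, where 24.1% of gene names were. The median sum of 6 B or plasma cell markers was 10.83 and 10.84 in Pparα-/- mice on CTRL and HFD against 9.88 and 9.85 in WT mice. Of the 6 markers, 1 and 2 were called higher, where 16.9% and 24.1% of gene names were. The median sum of 4 adipocyte markers was 14.31 in WT HFD mice against 10.92 to 11.49 in the other groups. Hepatocyte markers had medians between -0.07 and 0.01 in the 6 genotype comparisons, with at most 3 of 10 lower and 1 higher. Of all gene names 12.3% to 24.1% were higher and 12.9% to 23.7% lower in these comparisons. The part of these cells in the differences of the 35 genes was not tested.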

How the data were processed

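Liver RNA of 1 mouse per array was hybridised to one-colour Agilent arrays (design 74809, probe coordinates in mm9). The deposited scanner files, made by the authors with Agilent Feature Extraction 10.10.1.1, hold intensity values that are not normalized between arrays. The deposited files also hold the authors' log2 values, normalized and corrected for the wash batch, which were used as an alternative. Here the median signal was put on the log2 scale, outlier spots were left out, spots of a probe were averaged, and a probe was kept if 4 or more of the 8 arrays in any group lay well above background (33323 probes, 22029 gene names, 195 missing values, fitted without the array concerned). Values were quantile normalized in limma 3.58.1 (R 4.3.3, data.table version 1.17.8) and fitted with group means, wash batch and array weights (0.189 to 2.53), and p-values were adjusted by Benjamini-Hochberg within each of 12 comparisons over all probes. The fit was tested on simulated data. The number of arrays limits the precision, and nothing in the files showed arrays that were copies (highest correlation between arrays 0.997).

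Groups came from the labels. The 35 genes, the pathway list and the cell marker lists were chosen with earlier results of these data known. Named are all of the 35 genes and, of the pathway list, the 3 largest called rises and falls in each comparison of genotypes or diets, together with ligands and receptors. 1 gene of that list is not reported here. Alternatives used the processed signal scaled at the 75th percentile, normexp with an offset of 50, no probe filter, slide as a block, no wash term, the replicate number as a block, no array weights, the authors' log2 values and the mean of a gene's probes. Leaving out each of 48 arrays, leaving out the 4 mice and 1 weight per group were added after the data were seen.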

Additional observations from a re-analysis of the deposited data

Results flagged for a closer look

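Of 210 tests for a mouse far from the rest of its group (35 genes in 6 groups), 22 found one, where independent tests would give about 1 in 20. Many of the 35 genes were high in the same mice, so the tests are not independent and the count does not gauge chance. The test uses the gap to the next mouse, so WT CTRL replicates 6 and 8, both high, could hide each other. WT HFD replicate 6 was far above the other mice of its group in 10 genes: Irf7 at 14.06, Ifit2 at 7.89, Isg15 at 12.91, Oasl2 at 9.91, Ifi44 at 9.43, Gbp2 at 11.28, Gbp3 at 10.78, Igtp at 13.57, Irgm1 at 12.10 and Irgm2 at 12.75 on the log2 scale. Pparα-/- CTRL replicate 2 was far above in 4 genes: Zbp1 at 10.06, Isg15 at 13.29, Oas1a at 13.35 and Ifi44 at 9.41. Pparα hep-/- CTRL replicate 1 was far above for Zbp1 at 10.22 and Oas1a at 13.55 and far below for Gbp7 at 7.80. Pparα-/- CTRL replicate 3 was far below for Igtp at 11.67 and Irgm2 at 10.90, Pparα hep-/- CTRL replicate 5 for Usp18 at 10.16, Pparα hep-/- HFD replicate 3 for Gbp6 at 7.96 and Pparα hep-/- HFD replicate 4 for Iigp1 at 14.72.

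The response to HFD differed between genotypes in 17 values, by the difference of differences in limma. Between Pparα-/- and WT mice the gaps on the log2 scale were 1.11 for Irf7 (adjusted p = 0.000609), 0.40 for Irf9 (0.0301), 1.05 for Usp18 (0.0408), 1.47 for Oas1a (0.00482), 1.05 for Oas2 (0.0081), 0.62 for Oas3 (0.0212), 0.92 for Oasl2 (0.024), 0.48 for Bst2 (0.0132) and 1.4997 for Ifi44 (0.00139). The size of the Oas3 gap is uncertain, because its probe was near background in some of the groups compared. Oas3 was tested because of the groups in which it is high. Between Pparα-/- and Pparα hep-/- mice the gaps were 0.94 for Irf7 (0.00453), 0.42 for Irf9 (0.0362), 0.85 for Ifit2 (0.03), 1.02 for Ifit3 (0.0168), 1.12 for Oas1a (0.048), 1.58 for Ifi44 (0.00112), 1.05 for Gbp3 (0.0169) and 0.50 for Gbp7 (0.0386). When each of the 48 arrays was left out in turn, 7 of these 17 calls were lost in at least 1 fit. Against WT mice these were Usp18 in 14 fits (adjusted p up to 0.0880), Irf9 in 6 (0.0817) and Oas3 in 1 (0.0522), and against Pparα hep-/- mice Oas1a in 33 (0.0959), Irf9 in 12 (0.0970), Gbp7 in 12 (0.1001) and Ifit2 in 6 (0.0643).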

How the results depend on the processing

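Of 152 called values, 106 stayed called whichever array was left out, and leaving out arrays reversed 0. Beside those named with their losses above, the calls lost in 7 or more of the 48 fits were Ifi44 (11) and Oasl1 (8) in Pparα-/- against WT on CTRL, Oas1b (8) in Pparα-/- against Pparα hep-/- on CTRL and Bst2 (7) for HFD in Pparα-/- mice. Array weights mattered most: without them 77 of the 152 values stayed called, with 1 weight per group 89, and with the authors' log2 values 151. The cause was not tested. The share of all probes called, given after each count, moved too. Without weights the genes called were 0 of 6 for HFD in Pparα hep-/- mice (3.81% of probes against 20.2%), 9 of 18 for HFD in Pparα-/- mice (12.1% against 24.8%), 8 of 21 for Pparα hep-/- against WT on CTRL (16.6% against 24.7%) and 4 of 18 on HFD (9.74% against 26.7%), 15 of 24 for Pparα-/- against WT on HFD (31.7% against 45.7%), 6 of 10 for Pparα-/- against Pparα hep-/- on HFD (18.1% against 30.6%), and 2 of 9 and 0 of 8 for the response to HFD in Pparα-/- against WT (5.22% against 14.3%) and against Pparα hep-/- mice (0.33% against 3.42%). With 1 weight per group they were 1 for HFD in Pparα hep-/- mice (5.24%), 7 and 6 for Pparα hep-/- against WT on CTRL and HFD (12.6% and 11.3%), and 3 and 2 for the same responses (4.31% and 0.627%). With no filter on dim probes they were 1 for HFD in Pparα hep-/- mice (6.32%) and 5 and 2 for these responses (4.47% and 0.705%), and with the processed signal 12 for HFD in Pparα hep-/- mice (25%). Without the 4 mice they were 10 for HFD in Pparα hep-/- mice (21%), 14 for the response in Pparα-/- against Pparα hep-/- (3.59%) and 5 for that in Pparα hep-/- against WT mice (10.9%; 1 gene and 1.29% when weights were left out too).

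By the mean of a gene's probes 7 of 11 genes were called in Pparα-/- against WT on CTRL, the Ifih1 difference there turned to -0.0543, and Xaf1 turned to 2.11 and 2.41 against WT and 1.754 and 1.97 against Pparα hep-/- on CTRL and HFD; the dimmer probes behind these values were near background in 1 of the groups compared. Leaving out 1 array gave 1 to 9 genes for HFD in Pparα hep-/- mice: 1 without Pparα hep-/- HFD replicate 5, 2 without CTRL replicate 6, 3 without CTRL replicate 4 or HFD replicate 6. It gave 0 to 4 for the response in Pparα hep-/- against WT, with 4 without WT CTRL replicate 8, 2 without WT CTRL replicate 4 and 1 without WT CTRL 6 or 7, WT HFD 1 or 5, Pparα hep-/- CTRL 3, Pparα-/- CTRL 2 or Pparα-/- HFD 7. It gave 4 to 12 for the response in Pparα-/- against Pparα hep-/-: 4 without Pparα hep-/- CTRL 8 or HFD 6, Pparα-/- CTRL 1 or 8 or HFD 7, and 5 without Pparα hep-/- CTRL 7, HFD 3 or 5, Pparα-/- CTRL 4 or HFD 8.

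Mice that share a replicate number did not deviate together (median correlation 0.016 over 120 pairs, 32 of them over 0.1), so the numbers do not pair them; with the replicate number as a block 144 of 152 values stayed called, and 19 genes were higher in Pparα hep-/- than in WT on CTRL. Genes near background, such as Oas3, have the least certain levels.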
